A study of Mus musculus with 4 samples.

Results

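The mRNAs of cytosolic ribosomal proteins were followed in brain endothelial cells of mouse embryos. The set was chosen by gene name: protein-coding genes listed for all libraries, named Rpl, Rplp or Rps with a number, without the S6 kinases (Rps6k names) and without Rps19bp1. It holds 80 of 14100 genes, of which 48 have large subunit names and 32 small subunit names. RNA had been sequenced from endothelial cells of C57BL/6 brains at embryonic day 18. The labels name 2 libraries STING ECKO (STING ECKO 1 and STING ECKO 2), an endothelial knockout of the DNA-sensing adaptor STING, and 2 libraries wild type (WT 3 and WT 5). Which Cre drove the deletion, how the cells were isolated and how many embryos went into a library is not given in the sources used. The design text speaks of triplicates, and the 4 libraries in the labels were analysed.

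The cytosolic ribosome is built from a large and a small subunit, each a core of ribosomal RNA covered by ribosomal proteins. The proteins are made in the cytoplasm, carried to the nucleolus and assembled there, and most are needed in equal numbers per ribosome. In mammals their mRNAs typically begin with a C followed by a run of pyrimidines, the 5′ terminal oligopyrimidine (TOP) motif, through which mTORC1 and the RNA-binding protein Larp1 control their translation and stability. Ribosomal protein genes have left many processed copies (retrocopies) across mammalian genomes.

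The start of the mRNA is shown for 12 of the genes, because the pyrimidine run is the sequence feature that the family is known to share. The 12 were picked after their sequences and levels were seen, to show genes with and without the run at the RefSeq start. A RefSeq window of 300 bases around the annotated start (GRCm38.p6, 250 bases before and 50 after it) was found by symbol for 60 of the 80 genes. Each line gives 20 bases before the start and 20 from it, 5′ to 3′ on the strand of the gene. Capitals mark a C at the annotated start together with the run of C and T that follows it, where that run is at least 4 bases.
Rps6, chr4:86857348-86857387, minus strand: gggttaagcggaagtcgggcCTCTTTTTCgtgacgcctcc
Rpl15, chr14:18270967-18271006, minus strand: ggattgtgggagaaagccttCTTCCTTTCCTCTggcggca
Rpl14, chr9:120571497-120571536, plus strand: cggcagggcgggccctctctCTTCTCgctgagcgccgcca
Rps10, chr17:27635225-27635264, minus strand: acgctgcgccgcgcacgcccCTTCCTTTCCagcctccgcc
Rpl38, chr11:114668560-114668599, plus strand: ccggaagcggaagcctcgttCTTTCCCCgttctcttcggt
Rplp2, chr7:141447631-141447670, plus strand: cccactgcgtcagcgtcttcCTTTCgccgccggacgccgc
Rpl28, chr7:4792945-4792984, plus strand: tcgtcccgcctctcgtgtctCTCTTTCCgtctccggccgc
Rpl4, chr9:64173367-64173406, plus strand: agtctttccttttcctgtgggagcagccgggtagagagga
Rplp0, chr5:115559447-115559486, plus strand: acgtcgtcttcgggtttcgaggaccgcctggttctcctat
Rpl23, chr11:97782420-97782459, minus strand: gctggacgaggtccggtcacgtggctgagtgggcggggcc
Rpl7l1, chr17:46782637-46782676, minus strand: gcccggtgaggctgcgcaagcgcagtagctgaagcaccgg
Rpl22l1, chr3:28805488-28805527, plus strand: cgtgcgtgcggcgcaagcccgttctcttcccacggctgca

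The run stood exactly at the annotated start in 14 of the 60 ribosomal protein genes with a window (23.3%), against 813 of 27025 genes with a window (3.01%). Allowing it to begin up to 10 bases to either side raised this to 37 of 60 (61.7%), against 34.4% of all genes. Only the strand of the gene was searched, and a run is a description of the letters, not of where transcription starts in these cells. The run of Rps6, the S6 kinase substrate of the small subunit, was 9 bases long, that of Rpl15 in the large subunit 13. Rpl4 and Rplp0, among the most abundant members, have no such run at the RefSeq start. No match says only that these letters are not at that position. The deposited position of Rpl4 begins upstream of its RefSeq start, at 64173375. There the printed window does read a C followed by a run of C and T.

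Between 18610298 and 22169261 reads were listed per library. The sum of 12 endothelial markers was similar, at 24555 to 25946 CPM (counts scaled to the library size) in all 4 libraries. None of these markers was at 0 reads. Their median was lowest in STING ECKO 2, at 478 CPM against 547 to 576 CPM elsewhere. The abundant endothelial gene Cldn5 was highest in that library, at 12529 CPM against 10482 to 10848 CPM. The similar sums therefore do not show that single markers were even. Tmem173, which encodes STING, gave 67 and 182 reads under the STING ECKO label and 97 and 130 under WT, so the targeted gene did not separate the labels. Groups are therefore named by their labels throughout, and every direction below is between libraries so labelled. STING ECKO 1 had 3623 reads of the Y-linked Ddx3y and 0 of Xist, while the other 3 libraries had 876 to 3374 reads of Xist. STING ECKO 1 and WT 3 were deposited together in a table and STING ECKO 2 and WT 5 in another. Nothing in the labels says that libraries of a genotype came from separate animals, so the p-values measure the spread between these samples only.

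Ribosomal protein mRNAs made up 1.06%, 1.24%, 1.09% and 1.20% of listed reads, with libraries in the order STING ECKO 1, STING ECKO 2, WT 3, WT 5, which is kept below. Both libraries labelled STING ECKO lay outside the range of the WT pair, one below and one above it. On the log2 scale the labelled genotypes differed by 0.003, with a two-sided exact permutation p = 1.0 where 2 against 2 libraries cannot go below 0.33. In bulk RNA, fewer cells of a type and less RNA per cell cannot be told apart.

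**Figure D1:**
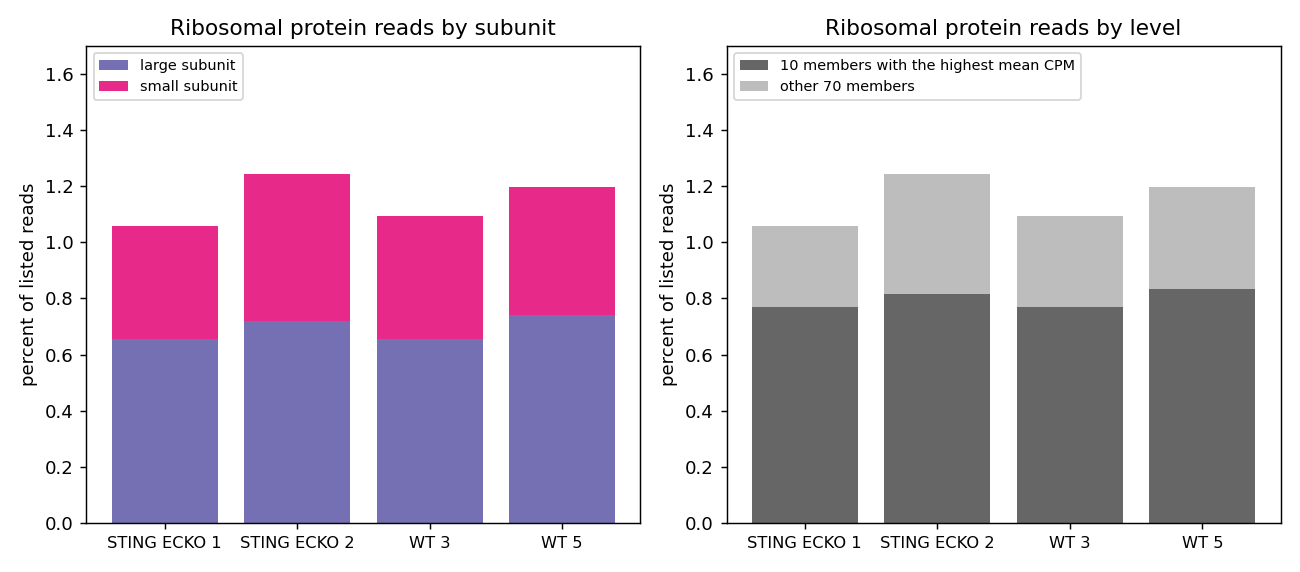
Reads of the 80 ribosomal protein genes as a percent of all listed reads in each of the 4 libraries, stacked by subunit (left) and by level (right, the 10 genes with the highest mean CPM and the other 70). Total height runs from 1.06% to 1.24%; the 10 highest genes differ little between libraries, and the other 70 range from 0.287% in STING ECKO 1 to 0.425% in STING ECKO 2.

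A few genes carried most of this RNA. The 10 members with the highest mean CPM held 72.9%, 65.8%, 70.4% and 69.6% of ribosomal protein reads. The other 70 took 0.287%, 0.425%, 0.323% and 0.364% of all reads in the same order. Reads of large subunit genes outnumbered those of small subunit genes by 1.62, 1.37, 1.51 and 1.63 times. STING ECKO 2 had the lowest ratio of the 4 and STING ECKO 1 lay inside the WT range (log2 difference between labelled genotypes -0.07, exact permutation p = 0.667, two-sided).

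Mean CPM ran from 0.257 for Rpl24 to 1853 for Rpl4. There were 18 genes at 100 CPM or more, 44 at 10 to 100, 13 at 1 to 10 and 5 below 1 (Rpl24, Rpl3l, Rpl23a, Rps21 and Rpl39). Because longer mRNAs give more reads, levels of different genes were compared as CPM per kilobase of the principal transcript. On that scale the median over the 80 genes was 41.5, the lowest 0.233 and the highest 1205, and the 90th percentile was 111 times the 10th. The 77 mitochondrial ribosomal proteins, the subunits of the separate ribosome inside mitochondria, had a median of 23.0 CPM per kilobase, a maximum of 135 and a ratio of 31.2 between the same percentiles. The cytosolic set thus spread over a wider range of measured levels than its mitochondrial counterpart, a description with no test.

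**Figure D2:**
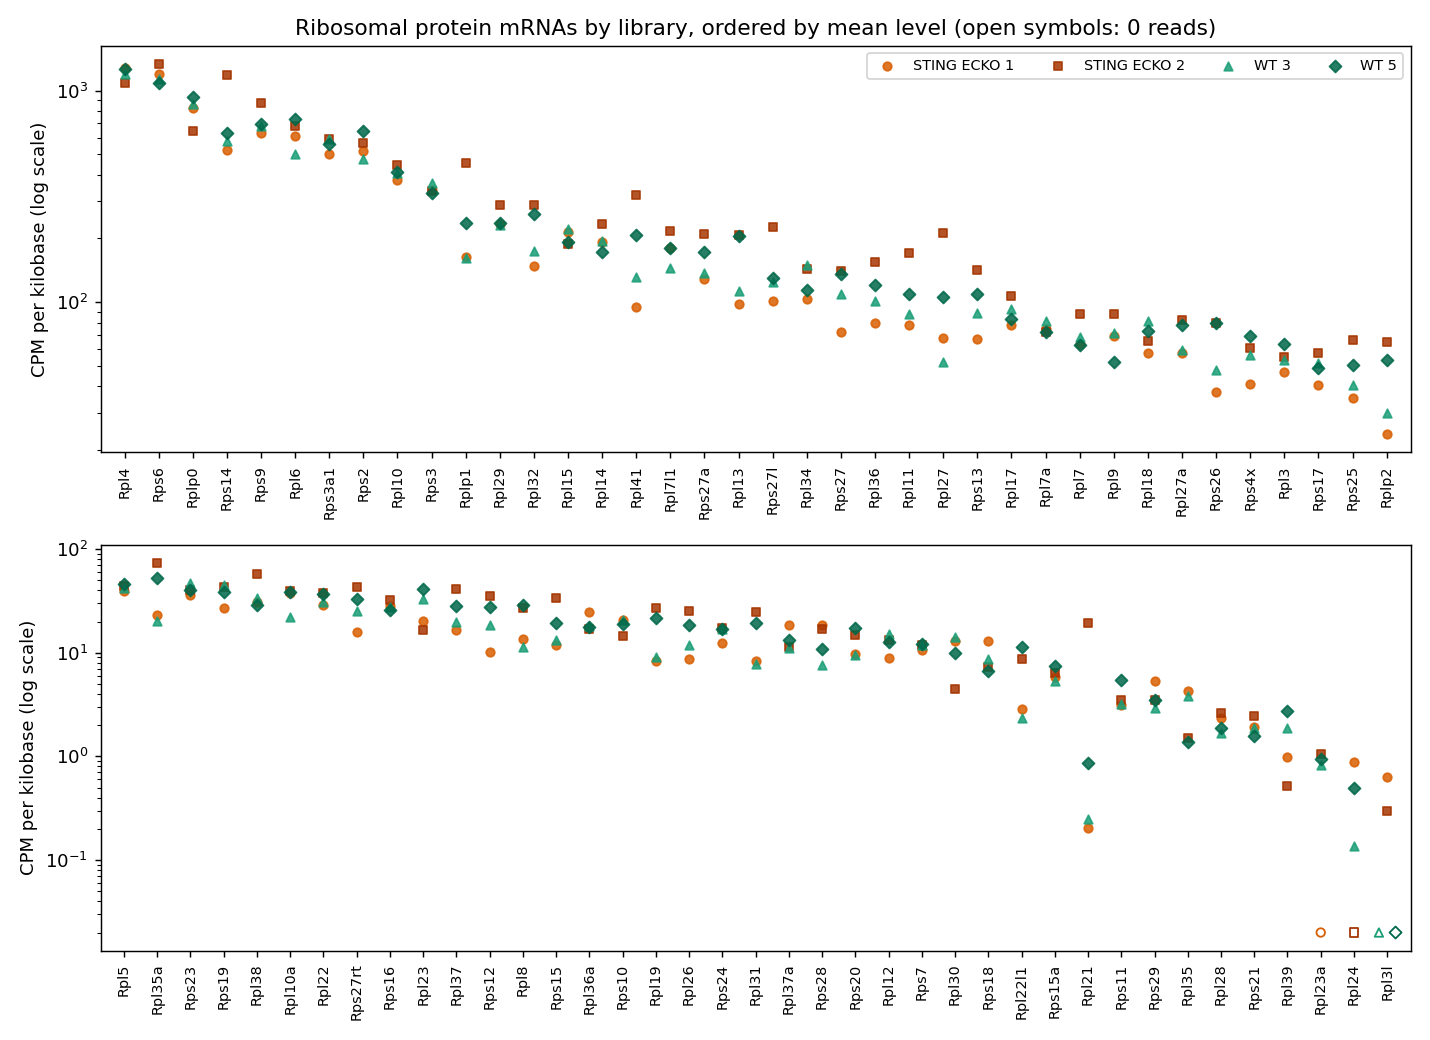
CPM per kilobase of principal transcript (log scale) for 77 of the 80 ribosomal protein genes, ordered by mean level, 1 symbol per library; open symbols at the foot mark 0 reads and stand at no value. Levels fall from 1205 for Rpl4 to 0.233 for Rpl3l, and the 4 libraries keep close to each other for most genes, with Rpl21 the widest apart.

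The 5 genes with the highest mean CPM were Rpl4, Rplp0, Rps6, Rpl6 and Rps3. Rpl4 (ENSMUSG00000032399, chromosome 9, 64173375 to 64178666, plus strand), a core protein of the large subunit, stood at 1962, 1665, 1849 and 1938 CPM in the 4 libraries. Rpl6, also of the large subunit, was at 776, 868, 637 and 935 CPM. Rps3, a small subunit protein at the mRNA entry channel, was at 647, 638, 699 and 628 CPM. The labelled genotypes overlapped for all of these 3.

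No ribosomal protein gene passed the test between the labelled genotypes. The edgeR quasi-likelihood test called 0 of 78 genes tested at an adjusted p below 0.05, with 0.0% of all 13365 genes tested called (the smallest adjusted p was 1.00 in the set and 0.977 overall). At an unadjusted p under 0.05, edgeR had 0 of the 78 and 4.8% of all genes (642). DESeq2 called 98 of 14100 genes (0.695%), among them 0 ribosomal protein genes, and limma-voom called 0 of either. The 2 members left untested for low counts were Rpl24 and Rpl3l. The median log2 fold change, labelled STING ECKO over WT, was 0.05 over the 78 and -0.03 over all genes tested; 44 of the 78 (56.4%) lay above 0, against 48.2% of all genes. The median was 0.07 for 46 large subunit genes and -0.02 for 32 small subunit genes.

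The errors set how small a change could be seen. The log2 fold changes had standard errors of 0.16 for Rps6 and 0.17 for Rpl4, but 0.56 for Rpl23 and 2.21 for Rpl21. The biological coefficient of variation, the relative spread between libraries of a genotype beyond counting, had a median of 0.379 over the 50 members of at least 20 CPM and 0.409 over the 6928 genes at that level. Above this floor of 20 CPM the medians were close, a comparison with no test and no matching of levels. edgeR draws the value of each gene toward a trend over all genes, so close medians are partly built in.

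**Figure D3:**
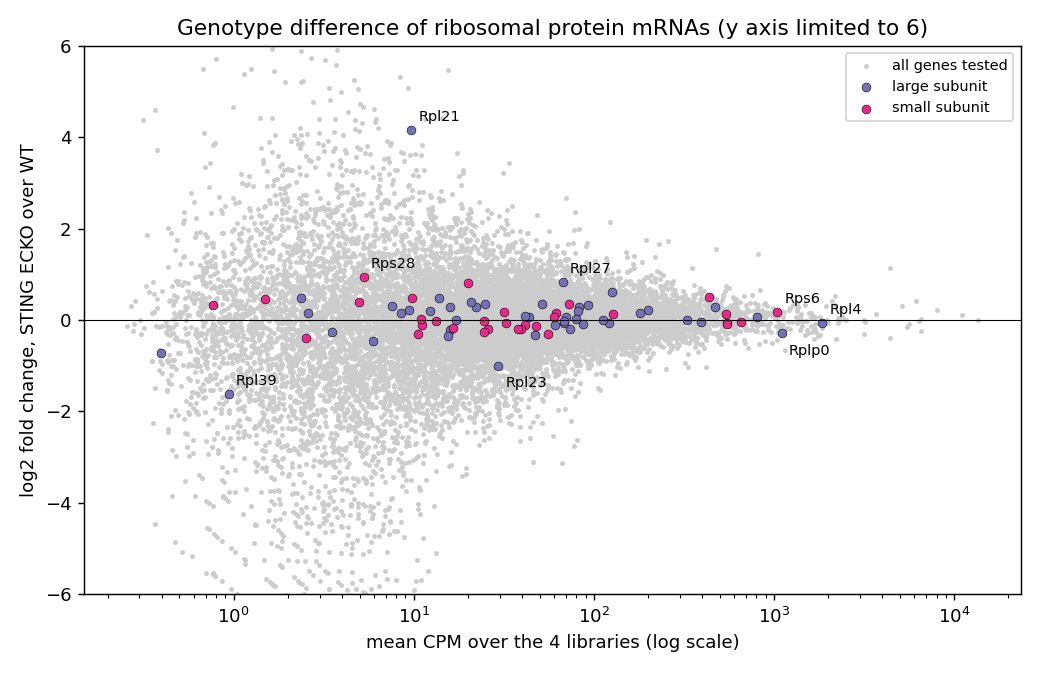
Log2 fold change, labelled STING ECKO over WT, against mean CPM over the 4 libraries (log scale) for all 13365 genes tested (grey) and for the 46 large and 32 small subunit genes tested; genes beyond 6 on the vertical axis are not drawn. Ribosomal protein genes gather around 0 (median 0.05), with Rpl21 at 4.15 and Rpl39 at -1.62 the farthest from it.

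The libraries of the labelled genotypes did not overlap for 13 of the 78 genes, 6 higher in those labelled STING ECKO and 7 lower. This is 16.7%, below the 34.4% of all genes tested (15.4% higher and 19.0% lower). The rule for naming took the 6 per direction with the smallest unadjusted p. Higher in the libraries labelled STING ECKO were Rps6, Rps28, Rpl28, Rps16, Rps29 and Rps21, and among those lower were Rpl23, Rplp0, Rpl39 and Rpl18. In the edgeR test the adjusted p was 1.00 for each of these 10.

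Among the small subunit genes, Rps6 (ENSMUSG00000028495, chromosome 4, 86854660 to 86857412, minus strand) reached 1048 and 1168 CPM under the STING ECKO label, and 997 and 956 CPM under WT. The group means were 1108 ± 85.1 and 976 ± 28.8 CPM (SD, n = 2 each), and the log2 fold change was 0.18 with a standard error of 0.16. Both libraries under the STING ECKO label lay above both WT libraries, and the test did not pass. Rps28 was at 7.25, 6.67, 2.96 and 4.24 CPM (log2 fold change 0.95, SE 1.24), and Rps16 at 31.2, 35.8, 30.6 and 29.0 (0.17, SE 0.52). Rps29 was at 2.07, 1.37, 1.16 and 1.35 CPM and Rps21 at 0.763, 0.960, 0.739 and 0.627, so their gaps rest on few reads, 13 to 21 in the case of Rps21.

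In the large subunit the widest of these gaps at over 20 CPM was that of Rpl23 (ENSMUSG00000071415, chromosome 11, 97777527 to 97782437, minus strand), a protein that can also bind Mdm2. It stood at 21.6 and 17.6 CPM under the STING ECKO label, against 35.0 and 43.2 CPM under WT. The means were 19.6 ± 2.85 and 39.1 ± 5.81 CPM (SD, n = 2 each; log2 fold change -0.997, SE 0.56; edgeR unadjusted p = 0.135, adjusted p = 1.00). Both libraries labelled STING ECKO lay below both WT libraries, and the test did not pass. Rpl39, a small protein lining the exit tunnel, was at 0.599, 0.320, 1.16 and 1.69 CPM, from 11, 7, 25 and 35 reads. Rpl18 was at 38.8, 44.6, 55.4 and 49.7 CPM (-0.33, SE 0.42) and Rpl28 at 2.62, 2.88, 1.85 and 2.07 (0.49, SE 1.40). Both of these gaps were smaller than their standard errors.

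The P stalk, the flexible arm of the large subunit that recruits translation factors, is formed by Rplp0 as base and by Rplp1 and Rplp2 as dimers. Rplp0 (ENSMUSG00000067274, chromosome 5, 115559467 to 115563727, plus strand) was at 1121, 873, 1169 and 1261 CPM, with both libraries labelled STING ECKO below both WT libraries. Its log2 fold change was -0.28 with a standard error of 0.19 (edgeR unadjusted p = 0.200, adjusted p = 1.00). Rplp1 was at 81.3, 226, 80.8 and 118 CPM and Rplp2 at 22.9, 62.6, 28.8 and 51.4. STING ECKO 2 was therefore the lowest library for the base and the highest for both dimer genes.

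Rpl5 and Rpl11 join the 5S ribosomal RNA in a particle that binds Mdm2 when ribosome assembly fails, which stabilizes p53. Rpl5 was even, at 79.7, 89.8, 86.0 and 93.1 CPM. Rpl11 was at 64.9, 142, 73.2 and 90.9 CPM, again highest in STING ECKO 2. Neither separated the labelled genotypes. Of 10 listed p53 targets and regulators (Mdm2, Mdm4, Trp53, Cdkn1a and others), 9 were listed for all libraries, 0 were called by edgeR at an adjusted or unadjusted p under 0.05, 3 lay above 0 and 6 below, and the median log2 fold change was -0.30. That median depended on the settings. It was -0.30 with DESeq2, -8.7e-05 with limma-voom and 0.06 when WT 5 was left out. Mdm4, an inhibitor of p53, was at 132, 77.5, 69.6 and 70.7 CPM. Zmat3, a p53 target, was at 19.0, 3.29, 30.9 and 31.5 CPM and Sesn2, a stress-induced inhibitor of mTORC1, at 65.8, 32.8, 102 and 52.2.

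The members lie on 19 chromosomes, 13 of them on chromosome 7 and 4 on the X. The X-linked ones were Rps4x (40.1, 59.3, 54.9 and 67.1 CPM), Rpl10 (303, 354, 327 and 329), Rpl36a (11.9, 8.27, 8.78 and 8.48) and Rpl39, given above. STING ECKO 1, the library with Y-linked reads and without Xist, was the lowest of the 4 for Rps4x and Rpl10 and the highest for Rpl36a, so these genes did not follow 1 order. Whether the sex of the embryos has a part in any value here was not tested.

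Some ribosomal proteins have a paralogue that can take their place. Rpl3l, the heart and skeletal muscle form of Rpl3, gave 16 and 9 reads under the STING ECKO label and 0 in both WT libraries. Against a floor of 3 reads per WT library its observed mean of 0.642 CPM was 4.53-fold higher. This ratio allows for counting error in the WT libraries only, takes the 16 and 9 reads as exact, and is not a lower bound. Rpl3 itself was at 46.6, 55.1, 53.4 and 63.1 CPM per kilobase, so the muscle form was a trace beside it. Rpl22 was at 28.8, 37.5, 30.8 and 36.7 CPM per kilobase and its paralogue Rpl22l1 at 2.86, 8.69, 2.34 and 11.4. Rpl22l1 was higher in STING ECKO 2 and WT 5 than in STING ECKO 1 and WT 3, the split of the deposited tables and not of the genotypes.

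Rps27l, a p53-responsive paralogue of Rps27, reached levels like those of its partner. It was at 101, 226, 125 and 130 CPM per kilobase, against 72.5, 140, 109 and 136 for Rps27. A further close relative, Rps27rt, was at 15.9, 42.8, 25.2 and 32.9, and all 3 were highest in STING ECKO 2. Of the windows of 50 bases along the Rps27 transcript, 98.6% also occur in a transcript of another gene, Rps27rt first among them, so reads of these genes are uncertain where the counting could split them. Rpl7l1, which acts in assembly of the large subunit, was at 180, 217, 145 and 180 CPM per kilobase, above the mean of Rpl7, 70.4. Rps3a1 was at 502, 590, 590 and 561 CPM per kilobase. No values for Rpl10l and Rpl36al enter here, which were not analysed.

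Reads at the foot of the range were too few for a comparison. Rpl24 had 11, 0, 2 and 7 reads and Rpl23a 0, 13, 10 and 11. These 2 and Rpl3l are the only members with 0 reads in a library. In GENCODE vM21, 71.5% of the exon bases of Rpl24 also belong to the gene Gm28037, and 55.4% of those of Rpl23a to Tlcd1, counting either strand. Counting either strand, overlap with another gene reached 40% or more in 7 members, the others being Rps25, Rpl5, Rpl35, Rps10 and Rpl31. Of the 7 only Rpl24 and Rps10 overlapped another gene on the same strand. The median of these 7 was 15.1 CPM per kilobase, against 41.5 for all 80. A read that falls in 2 genes is commonly left out by counting tools, and how the submitters set this is not given in the sources used.

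Sequence shared with retrocopies or other genes is a second limit on single genes. The median member shared 54.1% of its 50-base windows with another gene, counting either strand, from 0.0% in Rpl3l to 98.6% in Rps27. Across the 80 genes the shared percentage and CPM per kilobase had a Spearman rho of 0.11, a weak relation among genes that share libraries. The 66 retrocopies named for a member (symbols with -ps) held 3.16% to 3.38% as many reads as the members in each library. Sharing genes with other symbols, such as Gm9794 for Rpl23 and Gm10132 for Rpl23a, are not in this count.

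Among members with reads in every library, Rpl21, a large subunit protein, had the widest range. Rpl21 (ENSMUSG00000041453, chromosome 5, 146832890 to 146837032, plus strand) had 7, 794, 10 and 33 reads, or 0.381, 36.3, 0.462 and 1.59 CPM. Only STING ECKO 2 was high, and STING ECKO 1 was the lowest of all. The fitted log2 fold change of 4.15 (SE 2.21; edgeR unadjusted p = 0.117, adjusted p = 1.00) therefore rests on STING ECKO 2. Its retrocopy Rpl21-ps15 showed the same order of reads, with 6, 218, 8 and 13.

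The same library stood apart for the set as a whole. STING ECKO 2 was the highest of the 4 libraries for 44 of 80 genes (55.0%), where 29.8% of all genes tested were highest in it. These shares are not matched for transcript length, and shares by length are given below. STING ECKO 1 was the lowest for 41 of 80 (51.2%), against 19.9% of all genes tested. The median log2 deviation of a member from its own 4-library mean was -0.23, 0.24, -0.10 and 0.09 in the order of libraries. Over all genes tested these medians were 0.07, -0.09, 0.05 and 0.08, so the set lay on the other side of 0 from the median gene in STING ECKO 1, STING ECKO 2 and WT 3. The 2 libraries labelled STING ECKO went opposite ways. With library totals or median-of-ratios scaling, tried after seeing the data, STING ECKO 2 was highest for 41 and 45 of the 80.

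**Figure D4:**
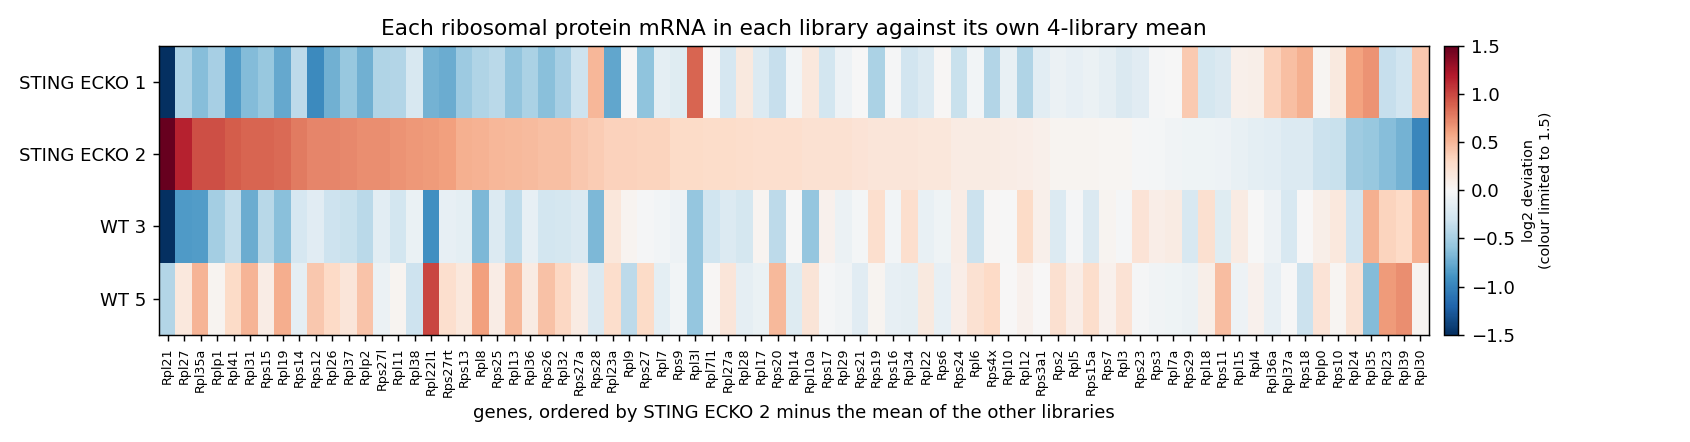
Log2 deviation of 77 of the 80 genes (columns) from its own mean over the 4 libraries (rows), from log2(CPM + 0.5), ordered by STING ECKO 2 minus the mean of the other libraries; red is above and blue below the mean, with colour limited to 1.5. Over all 80 genes STING ECKO 2 is above the mean in 60 and STING ECKO 1 in 18, with WT 3 (25) and WT 5 (52) between them.

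The libraries were also compared in pairs. Between the 2 libraries labelled STING ECKO the median log2 difference was -0.42 (STING ECKO 1 minus STING ECKO 2), and 25 of the 80 genes differed by at least 2-fold. Between the WT libraries it was -0.20 (WT 3 minus WT 5), with 8 genes that far apart. Within the first deposited table, STING ECKO 1 lay 0.11 below WT 3 and was higher in 26 of 80 genes, with 2 genes at least 2-fold apart. Within the second, STING ECKO 2 lay 0.11 above WT 5 and was higher in 56 of 80, with 6 that far apart. In every one of these 4 pairs a larger share of all genes tested was at least 2-fold apart than of the set. It was 41.7% against 31.2% between the libraries labelled STING ECKO, and 29.6% against 10% between the WT libraries. Within the first table it was 30.6% against 2.5%, and within the second 44.6% against 7.5%. Genes were not matched for level. Among genes tested of at least 5 CPM the shares were smaller, at 36.2%, 23.0%, 22.5% and 37.5% in the same order. They were still larger than those of the set. The 2 comparisons within a table had opposite directions, and each was smaller than the difference between libraries of a genotype. Over all genes tested the medians within tables were 0.01 and -0.15.

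Single members illustrate the differences between libraries. Rpl27, a large subunit protein, was at 41.7, 130, 32.0 and 64.6 CPM, and Rps14 at 313, 706, 344 and 376. For both the library labelled STING ECKO 2 was highest, while STING ECKO 1 stayed near the WT libraries. Rpl30 went the other way, at 7.46, 2.56, 8.13 and 5.69 CPM. Rpl35 was at 4.03, 1.42, 3.60 and 1.30, low in both libraries of the second table. These 4 were picked after their values were seen.

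Median deviations were larger among the less abundant members. The 10 members with the highest CPM had a median deviation of 0.10 in STING ECKO 2 and -0.02 in STING ECKO 1, the other 70 of 0.25 and -0.28. Both subunits took part: STING ECKO 2 was highest for 27 of 48 large subunit genes and 17 of 32 small subunit genes. Genes with the pyrimidine run at the RefSeq start, such as Rps6 and Rpl38 shown above, were highest in STING ECKO 2 in 9 of 14 cases. The 46 genes with a window and no run at that base were highest in it in 23. Median log2 fold changes of these groups were 0.17 and -0.01, and the difference was not tested.

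Ribosomal protein mRNAs are short, and short mRNAs of other kinds moved with the same libraries. Among genes of at least 5 CPM outside the set, the 29 with a principal transcript under 500 bases had median log2 deviations of -0.44, 0.82, -0.25 and 0.02 in the order of libraries. The 14 ribosomal protein genes under 500 bases, taken without a minimum CPM, had -0.37, 0.43, -0.12 and -0.05. From 500 to below 750 bases the medians were -0.25, 0.47, -0.14 and -0.10 for 136 other genes and -0.39, 0.35, -0.18 and 0.16 for 21 members. The 6145 other genes of 2500 bases or more had 0.10, -0.10, 0.08 and 0.08. The part of transcript length, RNA quality or library preparation in the pattern of the set was not tested. Within the 80 genes, length and the excess in STING ECKO 2 had a Spearman rho of -0.28 across genes that share the 4 libraries.

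**Figure D5:**
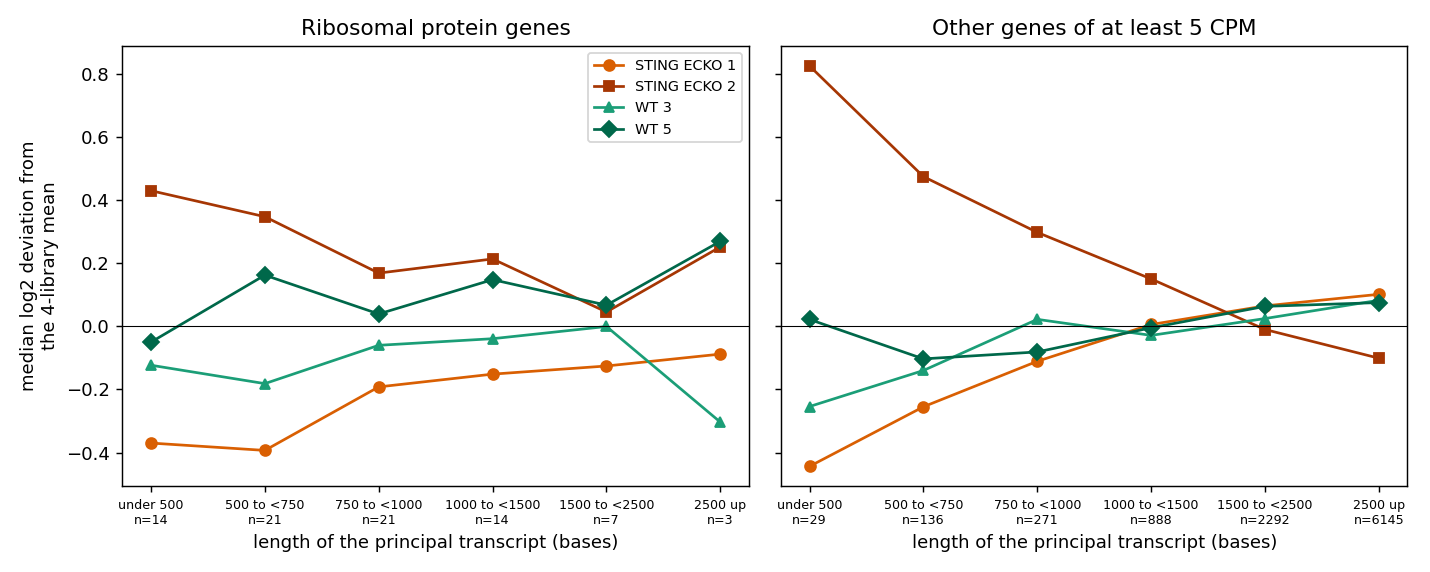
Median log2 deviation from the 4-library mean against length of the principal transcript in 6 classes, 1 line per library, for the 80 ribosomal protein genes (left) and for other genes of at least 5 CPM (right); n under each class is the number of genes. Among other genes STING ECKO 2 falls from 0.82 under 500 bases to -0.10 at 2500 or more while STING ECKO 1 rises from -0.44 to 0.10; members under 500 bases are at 0.43 and -0.37, and the longest class of members holds 3 genes.

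Subunit genes outside the name rule were examined in the same way. Rpsa and Fau encode small subunit proteins and Rack1 the scaffold protein on the small subunit head. Rpsa was at 116, 216, 157 and 157 CPM and Rack1 at 182, 218, 173 and 186. Fau was at 39.99, 107, 38.1 and 74.8, and all 3 were highest in STING ECKO 2. None was called by edgeR, at an adjusted or an unadjusted p under 0.05.

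Among 16 other mRNAs known to carry a TOP motif (elongation factors, Pabpc1, Npm1, Tpt1 and others), 0 were called by edgeR at an adjusted p below 0.05 and 0 at an unadjusted one. Of these 9 lay above 0 and 7 below, with a median log2 fold change of 0.09. The initiation factor Eif4b was at 277, 291, 171 and 231 CPM, the poly(A)-binding protein Pabpc1 at 175, 222, 140 and 159, and the histone chaperone Nap1l1 at 161, 188, 120 and 144. These 3 of the 16 had both libraries labelled STING ECKO above both WT libraries and 2 others had both below, where 15.4% of all genes tested were higher in this way and 19.0% lower. The 3 had log2 fold changes of 0.50, 0.41 and 0.40 and standard errors of 0.24, 0.25 and 0.25.

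Of 14 genes of the mTORC1, S6 kinase and Larp1 axis, 0 were called by edgeR, also at an unadjusted p under 0.05. Here 8 lay above 0 and 6 below, with a median of 0.11. Larp1, which binds the TOP motif, was at 64.5, 132, 47.7 and 39.8 CPM (log2 fold change 1.17, SE 0.47; edgeR unadjusted p = 0.0532, adjusted p = 1.00). The gap came mostly from STING ECKO 2. Rheb, the activator of mTORC1, was at 386, 456, 287 and 368 CPM and Rps6kb1, a kinase of the Rps6 protein, at 84.0, 67.3, 110 and 101.

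Of 24 ribosome assembly genes, 0 were called by edgeR after adjustment, with 13 above 0, 11 below and a median of 0.07. At an unadjusted p under 0.05, edgeR had 1 of the 24, where 4.8% of all genes tested passed. That gene was Sbds, which helps release Eif6 from the new large subunit. Sbds was at 269 and 359 CPM under the STING ECKO label and at 157 and 150 CPM under WT (log2 fold change 1.03, SE 0.24). Its edgeR unadjusted p was 0.00739 and its adjusted p 0.977. Lsg1, the GTPase of late large subunit maturation, was at 39.1, 18.3, 60.4 and 76.2 CPM, and Polr1a, the largest subunit of RNA polymerase I, at 11.4, 21.0, 41.6 and 43.1. For both genes the libraries labelled STING ECKO lay below both WT libraries, with log2 fold changes of -1.25 (SE 0.54) and -1.39 (SE 0.62). Of the 24, 4 had both libraries labelled STING ECKO above both WT libraries and 6 had both below. Of all genes tested, 15.4% were higher in this way and 19.0% lower.

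The 77 mitochondrial ribosomal proteins were highest in STING ECKO 2 in 39 cases, against 44 of 80 in the cytosolic set, but were not low in STING ECKO 1, where their median deviation was 0.03. Of 75 tested, 0 were called by edgeR at either threshold, 46 lay above 0 and 29 below, and the median log2 fold change was 0.17. Mrpl50 was at 32.1, 30.2, 72.1 and 53.4 CPM, Mrps16 at 64.0, 94.2, 37.5 and 52.3 and Mrpl51 at 63.7, 117, 45.6 and 56.1.

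Markers of other cell types were summed per library. The 6 of 8 pericyte and smooth muscle markers listed for all libraries summed to 9829, 10085, 7887 and 7240 CPM, higher in both libraries labelled STING ECKO, in which Acta2 was at 0 reads. The 8 microglia and macrophage markers summed to 539, 411, 538 and 1323 CPM, highest in WT 5. The 6 erythroid markers summed to 1228, 2852, 2514 and 1314 CPM, lowest in STING ECKO 1 and highest in STING ECKO 2. Their median marker took another order, at 73.0, 54.9, 116 and 59.8 CPM, lowest in STING ECKO 2. None of these microglial or erythroid markers was at 0 reads. The 5 of 6 astrocyte and radial glia markers summed to 53.1, 10.3, 95.8 and 73.6 CPM and the 5 of 6 neuronal markers to 39.9, 36.0, 85.9 and 47.1, with Aqp4 and Aldh1l1 at 0 reads in STING ECKO 2 and Snap25 at 0 in STING ECKO 1. Fibroblast markers (3 of 4) summed to 153, 146, 115 and 103 CPM and markers of the oligodendrocyte lineage (4 of 6) to 17.1, 1.46, 16.2 and 11.7. In these 2 lists Dcn and Olig1 were at 0 reads in STING ECKO 2, Olig2 in STING ECKO 1 and WT 5, and Pdgfra in WT 3. The part of these cell types in the values above was not tested.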

How the data were processed

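Whole reads per gene were taken from the deposited count columns of 2 tables, with STING ECKO 1 beside WT 3 and STING ECKO 2 beside WT 5. The CPM columns were scaled by the authors, per the file headers, and entered no test. The tools named are TopHat2 2.0.12 with Bowtie2 2.2.3 and HTSeq 0.6.0, on mm9, per the submitters' processing notes, which give no roles. For the strand setting, annotation release and treatment of reads that map to several places: not given in the sources used here. Of 14076 genes matched to GENCODE vM21 (GRCm38), 88.7% had identical positions, as did 69 of the 80 members, so coordinates are printed as GRCm38.

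The 14100 genes in both tables were analysed. Genotypes were compared with edgeR 4.0.16 in R 4.3.3, after a filter on low counts (filterByExpr, minimum 10) and TMM scaling, by its quasi-likelihood test. Standard errors were calculated back from each log2 fold change and the F statistic of that test. P-values were adjusted by Benjamini and Hochberg's method over the 13365 genes, with a threshold of 0.05. CPM in the text uses TMM-scaled library sizes, and deviations use log2(CPM + 0.5). Lengths are of 1 principal transcript per gene (APPRIS, then RefSeq link, support level and shortest length). Sums per library were compared with exact permutation tests in SciPy 1.17.1. The test was tried on simulated data. Between 18610298 and 22169261 reads were listed per library, so 1 read was 0.0451 to 0.0537 CPM. The ratio against 3 reads covers only counting error in the WT libraries, since reads are not independent molecules. The labels' replicate numbers (1, 2, 3 and 5) pair no libraries.

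Members, lists and tests were chosen with earlier results of these data known. The naming rule took genes past the threshold, else the 6 per direction with the smallest p whose libraries did not overlap; the 5 highest and lowest; genes with 0 reads; P stalk, 5S particle, X-linked and paralogue genes; and up to 3 genes per other list. Alternatives were DESeq2 1.42.0, limma-voom (limma 3.58.1), other filters and scalings, other memberships, the deposited table as a block, and each library left out. A few genes that the rule or lists hold are counted but not reported by name here.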

Additional observations from a re-analysis of the deposited data

Results flagged for a closer look

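Rpl13a fits the name rule but was listed in the table of STING ECKO 1 and WT 3 only, and entered no comparison. It had 59 reads in STING ECKO 1 and 15 in WT 3, which was above the control level. Rpl39l was listed in the other table only, with 1 read in STING ECKO 2 and 5 in WT 5.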

How the results depend on the processing

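The count of ribosomal protein genes called was 0 under the main settings and all 14 alternatives. Over all genes it was 0 except with DESeq2, which called 98; the cause was not tested. The median log2 fold change of the set lay between -0.26 (without STING ECKO 2) and 0.27 (without STING ECKO 1), against 0.05 with all 4 libraries. The number of genes above 0 ran from 21 of 80 (without STING ECKO 2) to 55 of 78 (without STING ECKO 1), against 44 of 78, so the direction of the set rests on which library labelled STING ECKO is kept. With a block by deposited table the median was -0.002 and 38 of 78 lay above 0. Where a library was left out, the lone library of its group was assumed to vary like the other group. The p-values of those fits therefore carry little weight. The log2 difference of summed share, 0.003 over all libraries, ran from -0.11 to 0.12 when a library was left out, and turned to -0.0017 as a share of nuclear protein-coding reads. It was -0.11 without STING ECKO 2 and -0.06 without WT 3. The log2 ratio of large to small subunit reads ran from -0.19 to 0.049 with a library left out, 0.049 being the value without STING ECKO 2, and was 0.048 without the 5 members with the most reads. The 10 genes named for not overlapping kept their direction in every alternative in which they were tested, and none was called. This follows largely from how they were picked, since leaving out a library cannot reverse genes whose libraries do not overlap. The replicate numbers 1, 2, 3 and 5 are not shared between the groups, so the block by deposited table was the only pairing fitted. With 2 libraries a group, depth limits genes such as Rps21 and Rpl39, which had under 40 reads in each library.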
